A study of Mus musculus with 9 samples.

Results

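The genes described here are 37 mouse genes of glycolysis and of the transcriptional response to low oxygen, out of the 49671 genes in each of 2 deposited count tables. They were taken from a list of symbols, and each matched 1 Ensembl identifier in GENCODE M21, the gene annotation of the mouse genome build GRCm38. All 37 had at least 1 count in every library. They fall into 16 glycolytic enzymes, 5 glucose and lactate transport and flux regulators, 14 hypoxia targets outside glycolysis, and the 2 alpha subunits of the hypoxia-inducible factors. No measured value was used to choose them, but the list was drawn up with earlier results of these data known.

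Bulk poly(A) RNA was sequenced from a mouse pancreatic cancer line, KPCWT (WT), and in its CD49b knockout counterpart, KPC49bKO (KO). CD49b is integrin alpha 2, a collagen receptor chain encoded by Itga2. There were 2 cultures of each line, 3 tumours of WT and 2 of KO. Cultures grew in DMEM with serum and were harvested near confluence. Tumours grew under the skin of immunocompetent C57BL/6 mice, which are syngeneic with the cells, and were dissociated with enzymes before RNA extraction. Each genotype was 1 cell line, so p-values measure only the spread between these samples of a line and not that between independent knockouts. The labels call the replicates biological and give no passage, animal or date. The batch tag was the same as the setting, so culture against tumour, batch, dissociation and host cells cannot be told apart. The KO tumours are called 1 and 3 after the table's column numbers.

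Glycolysis splits glucose into pyruvate through a chain of cytosolic enzymes, and lactate dehydrogenase and monocarboxylate transporters then dispose of the carbon as lactate. When oxygen falls, EGLN prolyl hydroxylases stop marking the HIF alpha subunits for destruction by the VHL ubiquitin ligase. The stabilised subunits pair with ARNT, bind short DNA elements with the core ACGTG or GCGTG, and raise transcription of most glycolytic enzymes together with genes for blood vessel growth, pH control, mitophagy and collagen hydroxylation. HIF activity is set largely by protein stability, which RNA counts do not measure. Pancreatic tumours are known for dense collagen, poor perfusion and low oxygen.

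Total counts ran from 16032912 to 21247023 per library. Levels are given as CPM, which are counts scaled to a common library size, here with TMM factors over all 9 libraries. A gene was called when its adjusted p (Benjamini-Hochberg over all genes tested) in the quasi-likelihood test of edgeR was under 0.05. Itga2 counts remained in the KO line. Cultures had 168 and 135 CPM in WT against 96.6 and 104 in KO (log2 fold change -0.64 ± 0.17 SE, edgeR adjusted p = 0.014). Tumours had 119, 144 and 137 CPM in WT against 44.6 and 64.1 in KO (log2 fold change -1.32 ± 0.18 SE, edgeR adjusted p = 0.0060). The edited stretch of the gene is not given in the sources used here, so counts over the whole gene check the labels only in part. WT tumours 1 and 2 were closer to each other than any other replicates, with a chi-square per gene of 6.55 against 25.2 to 43.9 in the other 5 pairs of libraries of a group. They still differed beyond sampling noise and were kept as 2 samples, and the number of members called in tumours is also given with those libraries summed into 1. In bulk tumours, fewer cells of a type and less RNA per cell cannot be told apart. The summed CPM of 6 epithelial markers ran from 4774 to 5975 in WT tumours and from 7783 to 10006 in KO tumours, that of 8 fibroblast and pericyte markers from 918 to 2363 and from 379.8 to 532, and that of 8 endothelial markers from 77.5 to 170.2 and from 41.1 to 82.9. None of these markers was at 0 in either tumour group. Of the 6 epithelial markers, 2 were called higher and 1 lower in KO tumours. In KO cultures 1 was called higher and 2 lower, so their sum does not measure the share of cancer cells alone. In culture the fibroblast markers summed to at most 2.65 CPM, with Dcn, Lum and Col1a2 at 0. The part of these differences in the tumour results was not tested. The mitochondrial share of counts was 3.39% to 4.72% in WT cultures, 2.05% to 2.16% in KO cultures, 1.90% to 2.00% in WT tumours and 2.69% to 3.33% in KO tumours, and its part in the results was not tested either.

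**Figure D1:**
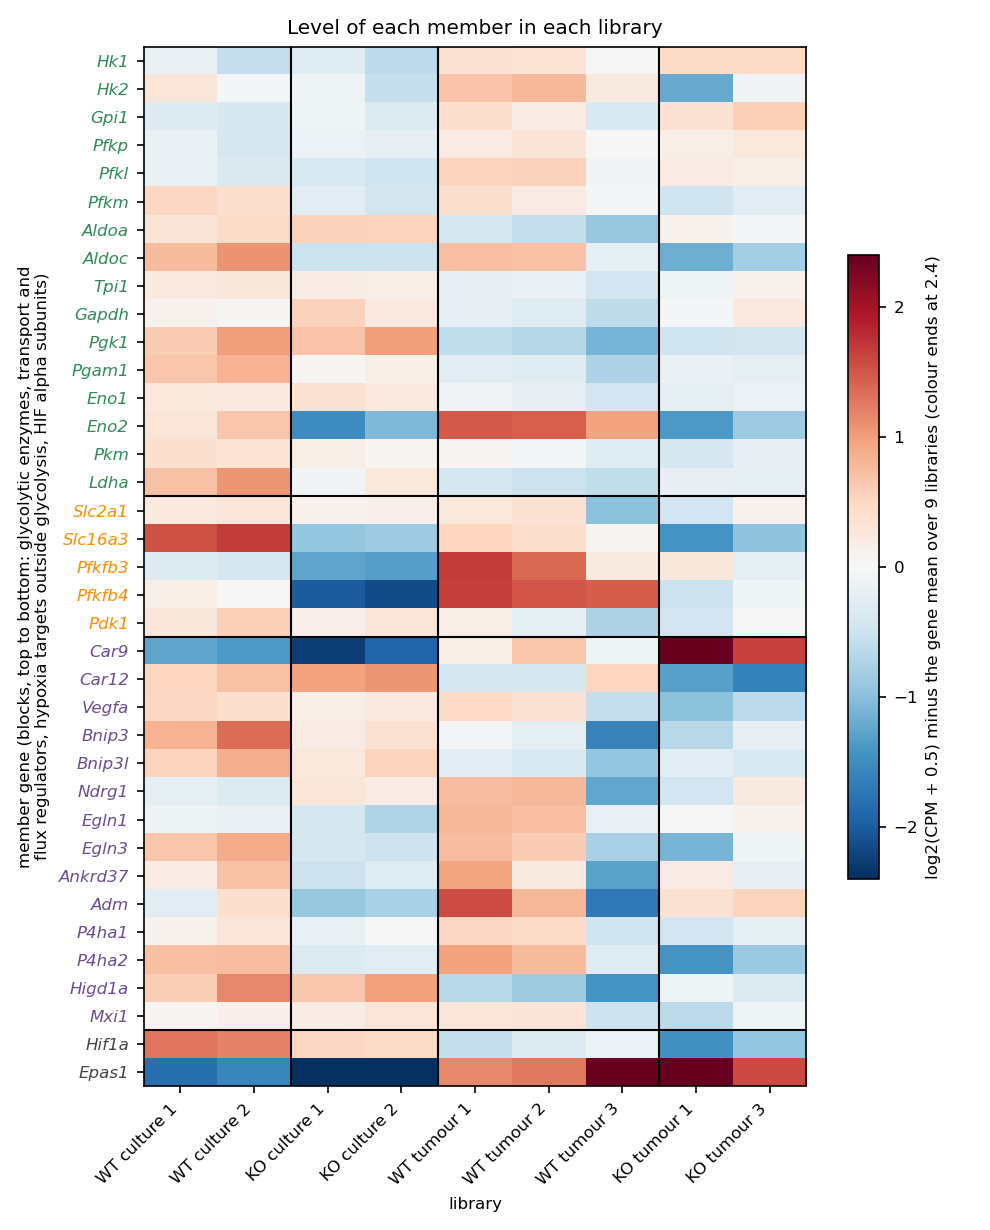
Level of each of the 37 members (rows) in each of the 9 libraries (columns), as log2(CPM + 0.5) minus the gene's mean over the libraries, red above and blue below, with black lines between groups and between gene lists. Slc16a3, Pfkfb4, Eno2 and Aldoc are lower in every KO library than in the WT libraries of the same setting, and WT tumour 3 is lower than WT tumours 1 and 2 for 34 of the 37 members.

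The DNA just before the start sites was examined for the HIF core. RefSeq promoters (build GRCm38.p6, the 250 bases before each annotated start) were found for 34 of the 37 members, all but Bnip3l, Ndrg1 and Epas1. ACGTG and GCGTG were searched on both strands; on the other strand they read CACGT and CACGC, and the palindrome CACGTG holds ACGTG on both strands and so counts as 2 matches. At least 1 match to either motif was found in 30 of the 34 members (88.2%), against 41.5% of all 27025 genes with a promoter of the same length. ACGTG alone was found in 20 of 34 (58.8%) against 18.5%. The members' promoters were also richer in CpG, with a median of 13.5 CpG dinucleotides per promoter against 6 over all, and each motif itself holds a CpG. By list, either motif was found in 13 of 16 glycolytic enzymes, in all 5 transport and flux regulators and in 11 of 12 hypoxia targets. Eno2, Car12, Gpi1 and Tpi1 held no match in this window. The promoters of 4 members are printed 5′ to 3′ on the gene's strand, with every match in capitals. Slc16a3 (chr11:120948817-120949066, plus strand) and P4ha2 (chr11:54100674-54100923, plus strand) were lower in the KO line in both settings. Ldha (chr7:46845554-46845803, plus strand) and Car9 (chr4:43506776-43507025, plus strand) are 2 of the 3 members whose KO effect differed between the settings. Slc16a3 held 2 ACGTG on its own strand, and P4ha2 held 1 ACGTG and 2 GCGTG. Car9 held 1 ACGTG at 18 bases before the start on the other strand. The Ldha promoter printed held 5 matches to ACGTG, of which 4 come from 2 palindromes. Another annotated Ldha promoter (chr7:46846832-46847081), not printed, held 1 GCGTG and no ACGTG. A match describes the letters and is not evidence that a HIF binds there.
Slc16a3: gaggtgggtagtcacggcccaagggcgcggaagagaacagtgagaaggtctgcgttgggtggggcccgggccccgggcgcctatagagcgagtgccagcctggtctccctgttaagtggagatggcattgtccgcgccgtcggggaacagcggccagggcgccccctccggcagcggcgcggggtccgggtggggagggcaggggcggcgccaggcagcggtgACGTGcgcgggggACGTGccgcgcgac
P4ha2: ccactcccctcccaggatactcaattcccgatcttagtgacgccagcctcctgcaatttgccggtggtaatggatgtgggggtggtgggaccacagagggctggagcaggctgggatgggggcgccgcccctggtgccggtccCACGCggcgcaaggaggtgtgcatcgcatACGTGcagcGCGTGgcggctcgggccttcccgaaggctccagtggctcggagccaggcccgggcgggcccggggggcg
Ldha: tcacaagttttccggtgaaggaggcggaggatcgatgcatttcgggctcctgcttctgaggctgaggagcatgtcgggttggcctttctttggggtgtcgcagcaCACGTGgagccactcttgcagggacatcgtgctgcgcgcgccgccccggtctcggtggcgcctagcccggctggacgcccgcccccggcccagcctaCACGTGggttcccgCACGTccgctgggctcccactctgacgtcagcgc
Car9: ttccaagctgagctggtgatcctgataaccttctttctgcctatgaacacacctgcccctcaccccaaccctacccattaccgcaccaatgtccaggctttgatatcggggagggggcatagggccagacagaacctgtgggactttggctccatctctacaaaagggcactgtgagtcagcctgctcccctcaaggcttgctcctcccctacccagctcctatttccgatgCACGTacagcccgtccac

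In culture the KO line had lower RNA for the lactate exporter Slc16a3, for the flux regulators Pfkfb3 and Pfkfb4, for 5 of the 16 glycolytic enzymes, for 5 of the 14 hypoxia targets and for both HIF alpha subunits. The other glycolytic enzymes, which include the most abundant ones except Ldha, were not called. Over all 37 members 15 fell, 1 rose (Ndrg1) and 21 were not called. Of all 13573 genes tested, 16.2% were called lower and 9.27% higher, so the members' 40.5% lower stood above that background and their 2.70% higher below it. In 29 of the 37 members the KO and WT cultures did not overlap, a share of 78.4% against 62.0% of all genes tested. The median log2 fold change was -0.35 over the 37 members and 0.00 over all genes. The number called fell from 16 to 10 without WT culture 2 and to 8 in a single fit of all 9 libraries.

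Among the transport and flux regulators, 3 of 5 fell in culture, and the smallest adjusted p of all members was that of the lactate exporter. Slc16a3 (ENSMUSG00000025161, chr11:120948480-120960868, + strand), which encodes the lactate exporter MCT4, was at 719.9 and 799.8 CPM in WT cultures and 129.6 and 135 CPM in the KO cultures. The groups were far apart, 5.90-fold lower in KO (log2 fold change -2.56 ± 0.17 SE, edgeR adjusted p = 5.9e-07). Pfkfb4, 1 of the enzymes that make and break fructose 2,6-bisphosphate, the main activator of phosphofructokinase, was at 9.10 and 8.23 CPM in WT and 1.67 and 1.46 CPM in KO (log2 fold change -2.50 ± 0.29 SE, edgeR adjusted p = 4.8e-05). Its relative Pfkfb3 was at 20.6 and 19.3 CPM in WT and 10.4 and 9.94 CPM in KO (log2 fold change -1.01 ± 0.20 SE, edgeR adjusted p = 0.0025). All 3 genes had every KO culture below every WT culture. Pfkfb3 was not called in the single fit of all 9 libraries (edgeR adjusted p = 0.11). Slc2a1, the glucose importer GLUT1, at 235 and 244 CPM in WT and 215 and 218 CPM in KO, was not called (log2 fold change -0.19 ± 0.15 SE, edgeR adjusted p = 0.40). Pdk1, the kinase that shuts off pyruvate dehydrogenase, was not called either (log2 fold change -0.27 ± 0.16 SE, edgeR adjusted p = 0.27).

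Among the glycolytic enzymes in culture, those that fell were Eno2, Aldoc, Pfkm, Ldha and Pgam1, of which the first 3 are not the most abundant form of their step. Eno2, the neuronal form of enolase, was at 2.21 and 3.00 CPM in WT and 0.278 and 0.556 CPM in KO (log2 fold change -2.70 ± 0.48 SE, edgeR adjusted p = 0.0013). It is a low gene, with 81 counts in WT and 13 in KO, a ratio of 6.48 with a 95% exact binomial interval of 3.58 to 12.7 that covers counting error only. Aldoc, the brain form of aldolase, was at 105 and 131 CPM in WT and 42.9 and 42.9 CPM in KO (log2 fold change -1.50 ± 0.17 SE, edgeR adjusted p = 3.8e-05). Pfkm, the muscle form of phosphofructokinase, was at 77.0 and 71.8 CPM in WT and 45.1 and 40.1 CPM in KO (log2 fold change -0.85 ± 0.17 SE, edgeR adjusted p = 0.0024).

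The other 2 were abundant enzymes. Ldha (ENSMUSG00000063229, chr7:46841475-46855627, + strand), the lactate dehydrogenase subunit that turns pyruvate into lactate, was at 2465 and 3156 CPM in WT and 1449 and 1819 CPM in KO (log2 fold change -0.82 ± 0.21 SE, edgeR adjusted p = 0.012). Pgam1, phosphoglycerate mutase, was at 345 and 389 CPM in WT and 223 and 241 CPM in KO (log2 fold change -0.70 ± 0.16 SE, edgeR adjusted p = 0.0060). For both enzymes every KO culture was below every WT culture, but the call was lost without KO culture 1 (edgeR adjusted p = 0.18 for Ldha and 0.098 for Pgam1) and without WT culture 2 (0.055 for each). The 11 enzymes that were not called had log2 fold changes from -0.49 (Hk2, the inducible hexokinase, 248 and 199 CPM in WT and 188 and 139 in KO) to 0.28 (Gapdh, 2916 and 2768 CPM in WT and 3959 and 3163 in KO). Pgk1, an enzyme often used as a hypoxia marker, had 1600.2 and 2091 CPM in WT and 1687 and 2089.5 CPM in KO, with overlapping groups (log2 fold change -0.01 ± 0.21 SE, edgeR adjusted p = 0.98). Eno1, the main enolase (0.02 ± 0.18), Pfkp (0.07 ± 0.16) and Gpi1 (0.10 ± 0.17) also had log2 fold changes within 1 SE of 0.

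Of the hypoxia targets outside glycolysis, Egln3, P4ha2, Adm, Ankrd37 and Bnip3 fell in culture and Ndrg1 rose. Egln3, a prolyl hydroxylase that acts on HIF alpha and is itself induced by it, was at 177 and 208 CPM in WT and 82.7 and 78.9 CPM in KO (log2 fold change -1.29 ± 0.16 SE, edgeR adjusted p = 7.4e-05). P4ha2, a catalytic subunit of collagen prolyl 4-hydroxylase, was at 98.0 and 99.9 CPM in WT and 47.5 and 48.9 CPM in KO (log2 fold change -1.08 ± 0.16 SE, edgeR adjusted p = 0.00029). In both genes the replicates of each group were close and the groups lay about a factor of 2.12 (P4ha2) and 2.45 (Egln3) apart. Bnip3, a mitophagy receptor, was at 228 and 324 CPM in WT and 145 and 165 CPM in KO (log2 fold change -0.87 ± 0.18 SE, edgeR adjusted p = 0.0038). Ankrd37 (-0.92 ± 0.20, edgeR adjusted p = 0.0045) and Adm, the vasodilator peptide adrenomedullin (-1.09 ± 0.30, edgeR adjusted p = 0.017), also fell. In the single fit of all 9 libraries none of these hypoxia targets was called. The edgeR adjusted p there was 0.068 for Egln3, 0.052 for P4ha2, 0.18 for Bnip3, 0.28 for Ankrd37, 0.41 for Adm and 0.52 for Ndrg1. The glycolytic enzymes Eno2, Aldoc, Pfkm, Ldha and Pgam1 kept their calls in that fit. Part of the Ankrd37 exons, 349 of 1539 bases, overlaps Lrp2bp on the other strand and 57 overlap Ufsp2, and the strand setting of the counting is not given in the sources used here. Without WT culture 2 the calls of Bnip3, Ankrd37 and Adm were lost (edgeR adjusted p = 0.062, 0.057 and 0.25).

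Ndrg1, a stress-response gene that is a standard hypoxia marker, moved the other way, at 334 and 309 CPM in WT and 474 and 446 CPM in KO (log2 fold change 0.47 ± 0.16 SE, edgeR adjusted p = 0.048). Its call was lost without any 1 of the 4 cultures (edgeR adjusted p = 0.11 to 0.30). Vegfa, the main vessel growth factor, had 590.5 and 563 CPM in WT and 472 and 495 CPM in KO and was not called (log2 fold change -0.30 ± 0.16 SE, edgeR adjusted p = 0.21). Car9, a carbonic anhydrase of the cell surface that exports acid, had 3.16 and 2.87 CPM in WT and 1.34 and 1.81 CPM in KO and missed the threshold (log2 fold change -0.99 ± 0.35 SE, edgeR adjusted p = 0.058). Car12, the other surface carbonic anhydrase, Mxi1, Higd1a, Bnip3l, P4ha1 and Egln1 were not called, with log2 fold changes from -0.46 (Egln1) to 0.38 (Car12).

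The HIF alpha subunits were both lower in the KO cultures. Hif1a (ENSMUSG00000021109, chr12:73901375-73947530, + strand) was at 455 and 427 CPM in WT and 264 and 256 CPM in KO, with no overlap (log2 fold change -0.81 ± 0.16 SE, edgeR adjusted p = 0.0025). Epas1, which encodes HIF-2 alpha, was near the detection limit in culture, at 1.07 and 1.37 CPM in WT and 0.167 and 0.208 CPM in KO (log2 fold change -2.71 ± 0.59 SE, edgeR adjusted p = 0.0048). In the single fit of all 9 libraries Epas1 was not called (edgeR adjusted p = 0.081). The 38 Epas1 counts in WT and 6 in KO gave a ratio of 6.58 with a 95% exact binomial interval of 2.76 to 19.1, counting error only, and Epas1 was no longer called once WT culture 2 was left out (edgeR adjusted p = 0.084).

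**Figure D2:**
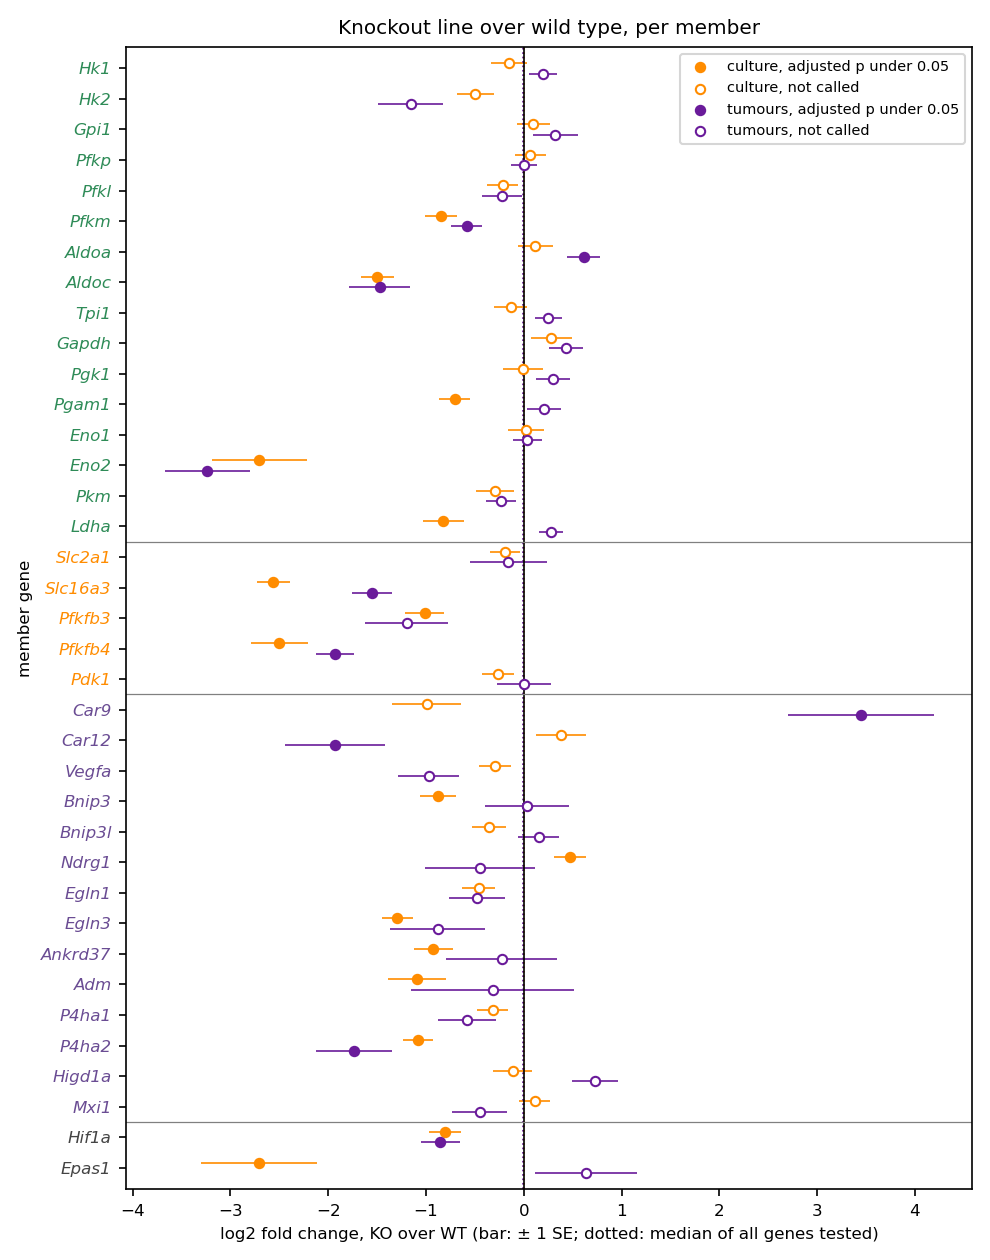
Log2 fold change of KO over WT for each member, in culture (orange) and in tumours (purple), with bars of 1 SE, filled points for an edgeR adjusted p under 0.05 and dotted lines at the median of all genes tested. Slc16a3, Pfkfb4, Eno2, Aldoc, Pfkm, P4ha2 and Hif1a are filled and left of 0 in both settings, and Car9 in tumours is the point farthest right, at 3.45.

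In tumours the KO line again had lower Slc16a3, Pfkfb4, Eno2, Aldoc, Pfkm, P4ha2 and Hif1a, Car12 was lower as well, and Car9 and Aldoa were higher. Over all 37 members 8 fell, 2 rose and 27 were not called. Of all 16257 genes tested, 10.9% were called lower and 8.78% higher, against 21.6% and 5.41% of the members. The libraries of the groups did not overlap in 19 of 37 members (51.4%), against 53.7% of all genes, so in this count the members stood at the background. The median log2 fold change was -0.22 over the members and -0.01 over all genes. With WT tumours 1 and 2 summed into 1 library, 3 members were called (Eno2, Slc16a3 and Pfkfb4), and there were also 3 without WT tumour 1 or without WT tumour 2, and 4 without KO tumour 1.

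Eno2, Slc16a3 and Pfkfb4 were lower in KO tumours under each alternative run. Eno2 was at 5.59, 5.48 and 3.83 CPM in WT tumours and 0.351 and 0.703 CPM in KO tumours (log2 fold change -3.23 ± 0.44 SE, edgeR adjusted p = 0.0059). Slc16a3 was at 355, 335 and 258 CPM in WT tumours and 91.6 and 128 CPM in KO tumours (log2 fold change -1.55 ± 0.20 SE, edgeR adjusted p = 0.0055). Pfkfb4 was at 26.9, 24.2 and 23.4 CPM in WT tumours and 5.61 and 7.57 CPM in KO tumours (log2 fold change -1.93 ± 0.20 SE, edgeR adjusted p = 0.0028). In all 3 genes the lowest WT tumour was more than 2 times the highest KO tumour. Aldoc was at 101, 100.1 and 52.2 CPM in WT tumours and 27.2 and 34.6 CPM in KO tumours (log2 fold change -1.47 ± 0.31 SE, edgeR adjusted p = 0.022), and P4ha2 at 117, 100.5 and 48.3 CPM and 21.9 and 32.0 CPM (log2 fold change -1.74 ± 0.39 SE, edgeR adjusted p = 0.026). Both genes had WT tumour 3 well below the other WT tumours but above both KO tumours. Pfkm was at 71.3, 62.9 and 53.7 CPM in WT and 38.8 and 45.8 CPM in KO (log2 fold change -0.59 ± 0.16 SE, edgeR adjusted p = 0.046).

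Hif1a, at 125, 148 and 170.1 CPM in WT tumours and 67.3 and 98.1 CPM in KO tumours, differed by about as much as in culture (log2 fold change -0.85 ± 0.20 SE, edgeR adjusted p = 0.029). Aldoa, the main aldolase, rose, from 745, 672 and 534 CPM in WT tumours to 1052 and 964 CPM in KO tumours (log2 fold change 0.61 ± 0.17 SE, edgeR adjusted p = 0.047). Without WT tumour 1, without WT tumour 2 or without KO tumour 1, the calls of Aldoc, P4ha2, Pfkm, Hif1a and Aldoa were lost (edgeR adjusted p from 0.054 to 0.17). The Hif1a and Aldoa calls were also lost without WT tumour 3 (0.071 and 0.062), and those of Pfkm and Aldoa without KO tumour 3 (0.055 and 0.054).

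The carbonic anhydrases moved in opposite directions in tumours. Car9 (ENSMUSG00000028463, chr4:43506966-43513729, + strand) was at 9.14, 13.5 and 7.71 CPM in WT tumours and at 194 and 26.7 CPM in KO tumours (log2 fold change 3.45 ± 0.74 SE, edgeR adjusted p = 0.023). Both KO tumours were above every WT tumour, but they differed from each other by about 7 times, and most of the mean came from KO tumour 1. Without KO tumour 1 the log2 fold change was 1.38 (edgeR adjusted p = 0.048), and without any 1 of the WT tumours the call was lost (adjusted p = 0.067 to 0.080). The Car9 exons share 214 bases with the antisense gene Gm12454, which had 683 counts over the 9 libraries against 4594 for Car9. Car12 was at 2.14, 2.21 and 4.60 CPM in WT tumours and 0.935 and 0.649 CPM in KO tumours, without overlap (log2 fold change -1.93 ± 0.51 SE, edgeR adjusted p = 0.042), and its call was lost without any 1 of the 5 tumours (adjusted p = 0.060 to 0.12). The tumour with the most Car9, KO tumour 1, also had the highest epithelial sum of the tumours (10006 CPM) and the lowest fibroblast and endothelial sums, whose part in the result was not tested.

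The remaining glycolytic enzymes did not follow Eno2, Aldoc and Pfkm in tumours. Of the 16 enzymes, 10 had a log2 fold change above 0 and their median was 0.12, with 1 called higher and 3 lower. Of the 14 hypoxia targets, 10 were below 0 and their median was -0.45, with 1 higher and 2 lower. Gapdh had 2356, 2205 and 1765 CPM in WT tumours and 2614 and 3158 CPM in KO tumours (log2 fold change 0.43 ± 0.17 SE, edgeR adjusted p = 0.12). Ldha, lower in the KO cultures, had 1131, 1069 and 1016 CPM in WT tumours and 1321 and 1311 CPM in KO tumours, the KO tumours being above every WT tumour (log2 fold change 0.28 ± 0.12 SE, edgeR adjusted p = 0.15). Hk2 missed the threshold in the other direction, at 328, 348 and 237 CPM in WT tumours and 87.6 and 191 CPM in KO tumours (log2 fold change -1.15 ± 0.33 SE, edgeR adjusted p = 0.054). Vegfa had 588, 536 and 287 CPM in WT tumours and 213 and 273 CPM in KO tumours and was not called (log2 fold change -0.97 ± 0.31 SE, edgeR adjusted p = 0.071), and Higd1a, a mitochondrial protein of the respiratory chain, had 26.4, 23.4 and 15.5 CPM and 39.2 and 33.7 CPM (log2 fold change 0.73 ± 0.24 SE, edgeR adjusted p = 0.076). Pfkfb3, Egln3, P4ha1, Egln1, Ndrg1 and Mxi1 had log2 fold changes from -1.20 (Pfkfb3) to -0.44 (Ndrg1), with overlapping groups.

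Set side by side, the median KO effect of the hypoxia targets lay below that of the glycolytic enzymes in both settings. The difference between the list means per library, however, overlapped between KO and WT in both settings. In culture the medians were -0.41 for the hypoxia targets and -0.18 for the enzymes, a difference of -0.22. In tumours they were -0.45 and 0.12, a difference of -0.56. These are descriptions of lists of 14 and 16 genes and carry no test. Per library, the mean of log2(CPM + 0.5) over the enzymes was 8.61 and 8.63 in WT cultures, 8.29 and 8.24 in KO cultures, 8.51, 8.45 and 8.05 in WT tumours, and 8.05 and 8.24 in KO tumours. The same mean over the hypoxia targets was 6.04 and 6.24 in WT cultures, 5.66 and 5.77 in KO cultures, 6.24, 6.10 and 5.08 in WT tumours, and 5.66 and 5.67 in KO tumours. The hypoxia mean minus the enzyme mean was -2.58 and -2.39 in WT cultures against -2.62 and -2.47 in KO cultures, and -2.27, -2.34 and -2.97 in WT tumours against -2.39 and -2.57 in KO tumours. These values overlapped in both settings, with a pooled SD of 0.22 within groups, and in tumours the lowest of them was that of WT tumour 3. Taken alone, both lists were lower in KO cultures with no overlap, and in tumours WT tumour 3 was below or level with the KO tumours in both. Without WT tumour 3 the tumour medians were -0.80 for the hypoxia targets and -0.02 for the enzymes, and without WT tumour 1 the hypoxia median was -0.27.

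**Figure D3:**
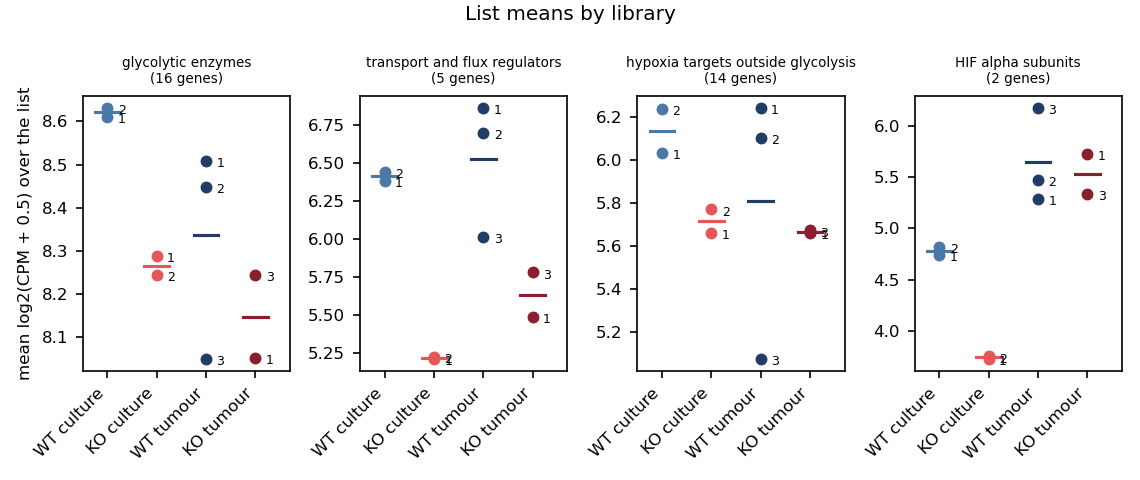
Mean of log2(CPM + 0.5) over each gene list (1 panel per list, each with its own vertical range) in each library, with numbered points for libraries and short lines for group means. In the 5 transport and flux regulators every KO library is below every WT library of its setting, whereas in the glycolytic enzymes and the hypoxia targets WT tumour 3 lies apart from WT tumours 1 and 2.

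The KO effect differed between tumours and culture for Ldha, Car9 and Car12. In the test of the difference itself, over 16793 genes and 9 libraries, 4.15% of all genes were called higher and 1.54% lower. Of the 37 members 2 were called higher (5.41%) and 1 lower (2.70%), so the members lay near that background. Ldha had -0.82 ± 0.21 in culture and 0.28 ± 0.12 in tumours (difference 1.08 ± 0.24, edgeR adjusted p = 0.025). Car9 had -0.99 ± 0.35 and 3.45 ± 0.74 (difference 4.40 ± 1.06, edgeR adjusted p = 0.036). Car12 had 0.38 ± 0.25 and -1.93 ± 0.51 (difference -2.34 ± 0.60, edgeR adjusted p = 0.046). The differences of Slc16a3 (0.99 ± 0.26, edgeR adjusted p = 0.052) and Pgam1 (0.89 ± 0.24, edgeR adjusted p = 0.053) missed the threshold. For Hif1a the difference was -0.07 ± 0.26 and for Aldoc 0.01 ± 0.38. Leaving out 1 library at a time gave from 0 to 6 members called, with 0 without KO culture 1, WT culture 2 or WT tumour 1 and 6 without WT tumour 3. DESeq2 called 6, limma-voom 1, and edgeR without the filter on low counts 9. None of the 3 calls was kept under every alternative, and the Car9 difference was 2.38 without KO tumour 1.

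**Figure D4:**
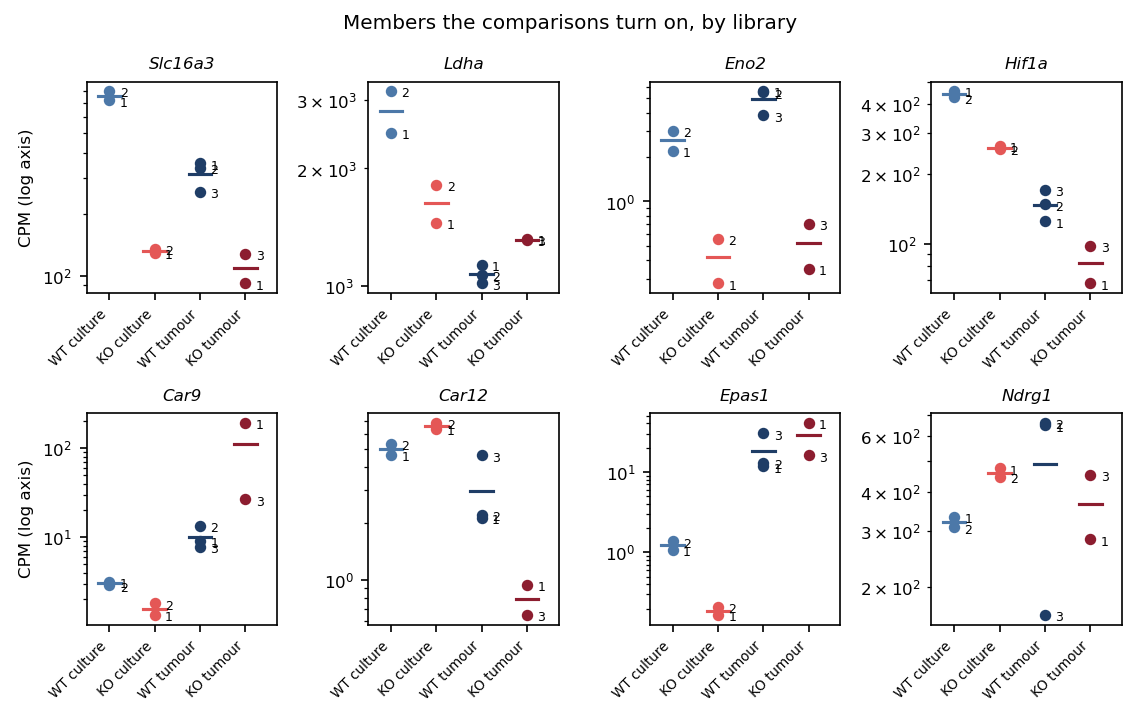
CPM of 8 members in each library on log axes (1 panel per gene, each with its own range), with numbered points for libraries and short lines for group means. Slc16a3, Eno2 and Hif1a are lower in KO in both settings, Ldha is lower in KO cultures and not in KO tumours, Car9 in KO tumours spans 26.7 to 194 CPM, and Ndrg1 in WT tumours spans 163 to 662 CPM.

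Between culture and tumour, the glycolytic enzymes did not rise as a group, and the alpha subunits moved in opposite directions. In the WT line 8 members were higher in tumours, 14 were lower and 15 were not called, and in the KO line the numbers were 7, 9 and 21. The background was high, with 36.1% of all 16793 genes called higher and 29.6% lower in WT, and 32.9% and 26.4% in KO, so the members' 37.8% lower in WT and 24.3% in KO lay near it and their 21.6% and 18.9% higher below it. The median over all genes tested was 0.17 in both lines. These comparisons share their libraries with those of KO and WT, so they are no independent evidence for them. Scaling by library totals moved it to 0.64 in WT and 0.60 in KO. Under library totals the calls over all genes were 8410 higher and 3154 lower in WT, against 6055 and 4977 with TMM, and 7659 and 2636 in KO, against 5519 and 4431. The members then had 11 higher and 9 lower in WT, and 9 higher and 4 lower in KO. Without WT culture 2 the number of members called in WT fell from 22 to 14, and without KO culture 2 that in KO fell from 16 to 10.

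Pgk1 was the glycolytic enzyme with the largest drop, from 1600.2 and 2091 CPM in WT cultures to 697, 652 and 482 CPM in WT tumours (log2 fold change -1.60 ± 0.19 SE, edgeR adjusted p = 3.5e-05), and with -1.31 ± 0.21 in KO (edgeR adjusted p = 0.00037). In WT, Ldha (-1.39 ± 0.16, edgeR adjusted p = 2.8e-05), Pgam1 (-1.17 ± 0.16, 8.7e-05), Aldoa (-1.0 ± 0.16, 0.00024) and Tpi1 (-0.53 ± 0.14, 0.0064) were also lower in tumours. Gapdh, Eno1 and Pkm were called lower in WT tumours with TMM, at -0.43, -0.47 and -0.44, and were at 0.042, 0.0015 and 0.031 under library totals, so their sign depends on the scaling. Library totals moved the median of all genes in WT from 0.17 to 0.64, and all 3 genes were below that median under both scalings. Tpi1 was at -0.053 under library totals and was then not called (edgeR adjusted p = 0.75). Hk1 rose in both lines (0.60 ± 0.17 in WT, edgeR adjusted p = 0.0095, and 0.92 ± 0.18 in KO, 0.0015), as did Pfkl (0.62 ± 0.18 and 0.58 ± 0.20, edgeR adjusted p = 0.012 and 0.026). Hk1 is the hexokinase of most tissues and Pfkl the liver form of phosphofructokinase. Slc16a3 was lower in WT tumours than in WT cultures (log2 fold change -1.27 ± 0.17 SE, edgeR adjusted p = 1.0e-04) and had -0.27 ± 0.19 in KO, where it was already low in culture (edgeR adjusted p = 0.24).

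Pfkfb3 and Pfkfb4 rose from culture to tumours in both lines. Pfkfb4 rose by 1.52 ± 0.21 in WT (edgeR adjusted p = 9.2e-05) and by 2.07 ± 0.25 in KO (6.7e-05). Pfkfb3 rose by 1.60 ± 0.35 in WT (edgeR adjusted p = 0.0021) and by 1.38 ± 0.38 in KO (0.0092). Of the hypoxia targets, Bnip3l, a mitophagy receptor related to Bnip3, and Higd1a fell in both lines (Higd1a -1.87 ± 0.23 in WT and -1.05 ± 0.26 in KO, edgeR adjusted p = 5.1e-05 and 0.0049). Bnip3 fell in WT (-1.60 ± 0.35, edgeR adjusted p = 0.0023) and had -0.71 ± 0.39 in KO. Car9 rose in KO by 6.14 ± 0.83 (edgeR adjusted p = 0.00012), or by 4.10 without KO tumour 1, and in WT by 1.74 ± 0.70 (0.046). Car12 (-3.06 ± 0.47, edgeR adjusted p = 0.00027), Vegfa (-0.99 ± 0.28, 0.0098) and P4ha2 (-0.84 ± 0.33, 0.049) fell in KO. Other members called in WT were Pfkp (0.44, edgeR adjusted p = 0.016), Egln1 (0.66, 0.033) and Pdk1 (-0.67, 0.028). Those in KO were Gpi1 (0.67, edgeR adjusted p = 0.023), Aldoa (-0.53, 0.022) and Eno1 (-0.48, 0.024). Each of these further calls was lost under some alternatives. Of the members named, those called under each alternative run were Aldoa, Pgk1, Pgam1, Ldha, Slc16a3, Pfkfb3, Pfkfb4, Bnip3, Bnip3l, Higd1a, Hif1a and Epas1 in WT, and Hk1, Pgk1, Pfkfb4, Car9, Car12, Higd1a, Hif1a and Epas1 in KO. In WT the calls of Hk1 and Pfkl were lost without WT culture 2 (edgeR adjusted p = 0.13 and 0.11), and that of Car9 without either WT culture (0.15 and 0.19). In KO the call of Pfkfb3 was lost without KO culture 2 (edgeR adjusted p = 0.061), that of Vegfa without KO tumour 1 (0.051), and those of Pfkl and P4ha2 without KO culture 1, KO culture 2 or KO tumour 1. Under library totals the calls of Vegfa (edgeR adjusted p = 0.11), Bnip3l and P4ha2 in KO were lost.

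Hif1a fell from culture to tumours in both lines (-1.58 ± 0.17 in WT and -1.65 ± 0.20 in KO, edgeR adjusted p = 2.4e-05 and 5.9e-05). Epas1 rose, from 1.07 and 1.37 CPM in WT cultures to 11.7, 12.8 and 30.0 CPM in WT tumours (log2 fold change 3.89 ± 0.57 SE, edgeR adjusted p = 0.00016), and from 0.167 and 0.208 CPM in KO cultures to 41.0 and 16.1 CPM in KO tumours. In KO the 998 counts in tumours and 6 in culture gave a ratio of 151 with a 95% exact binomial interval of 69.2 to 413, counting error only. Epas1 is strongly expressed by endothelial cells, and the endothelial markers summed to 10.9 to 21.1 CPM in culture and 41.1 to 170.2 CPM in tumours. Among the WT tumours the highest Epas1 and the highest endothelial sum were both in WT tumour 3, whereas KO tumour 1 had more Epas1 than KO tumour 3 and a lower endothelial sum. The part of host cells in the rise was not tested.

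**Figure D5:**
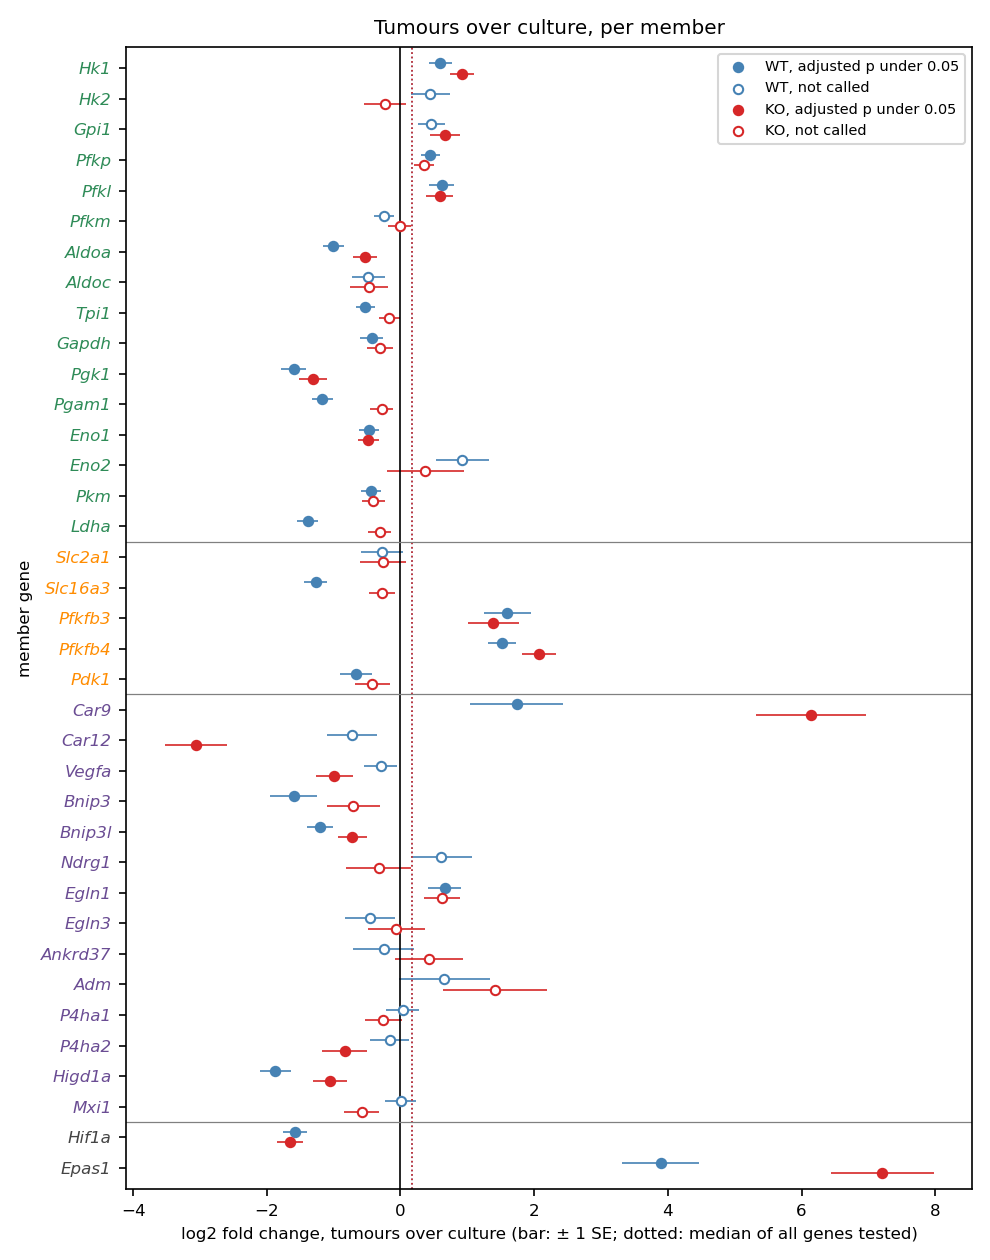
Log2 fold change of tumours over culture for each member, in WT (blue) and KO (red), with bars of 1 SE, filled points for an edgeR adjusted p under 0.05 and dotted lines at the median of all genes tested, 0.17 in both. Epas1, Pfkfb4, Pfkfb3 and Car9 are filled and right of 0 in both lines and Hif1a, Pgk1, Higd1a and Bnip3l left of 0, while Gapdh, Eno1 and Pkm in WT are left of 0 here and at 0.042, 0.0015 and 0.031 under library totals, where the median of all genes is 0.64.

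WT tumour 3 stood apart from WT tumours 1 and 2 in these genes. It had the lowest value of the WT tumours for 34 of the 37 members (91.9%), against 40.0% of all genes tested. All 16 glycolytic enzymes, all 5 transport and flux regulators and 13 of the 14 hypoxia targets were among them, and the exceptions were Car12, Hif1a and Epas1. Its median log2 ratio to the mean of the other WT tumours was -0.39 for the enzymes and -0.96 for the hypoxia targets, against 0.00 for all genes. The strongest were Adm, at 20.9, 12.0 and 1.70 CPM in WT tumours 1, 2 and 3, Ndrg1, at 649, 662 and 163 CPM, and Ankrd37, at 61.4, 37.0 and 12.7 CPM. WT tumour 3 thus had 10.4%, 24.9% and 25.9% of the mean of the other WT tumours for these genes. Slc2a1 was at 238, 255 and 101 CPM, Egln3 at 185, 169.7 and 65.0 CPM, Bnip3 at 123, 109.9 and 41.5 CPM and Pfkfb3 at 83.1, 68.0 and 30.1 CPM. Ldha, at 92.3% of the mean of the others, and Pfkfb4, at 91.3%, moved least among the genes that were lower. The epithelial marker sum in WT tumour 3 was 82.7% of the mean in WT tumours 1 and 2 and the fibroblast and pericyte sum 211%. Other marker sums in WT tumours 1, 2 and 3 were 3.89, 8.4 and 53.7 CPM for neutrophils, 23.0, 26.2 and 154 for muscle, 94.4, 77.5 and 170.2 for endothelium, 229, 256 and 390.1 for macrophages, and 15.6, 16.5 and 4.60 for T and NK cells. WT tumour 3 was the highest of the WT tumours in each of these sums except T and NK cells, where it was the lowest. The macrophage list also summed to 217 to 227 CPM in WT cultures, with 7 of its 10 markers at 0. This sum therefore does not measure macrophages alone. The part of the cell mix in the values of WT tumour 3 was not tested. These are values of 1 library, with no test.

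Within steps that have several forms, the share of Aldoc, Eno2, Pfkm, P4ha2 and Hk2 was lower in every KO library than in the WT libraries of its setting. Shares were taken from CPM per kilobase of exon. Aldoc made up 7.43% ± 0.582 (SD, n = 2) of the aldolase members in WT cultures and 2.56% ± 0.0141 (n = 2) in KO cultures. In tumours it made up 10.2% ± 1.93 (n = 3) in WT and 2.68% ± 0.601 (n = 2) in KO. Pfkm made up 35.9% ± 1.06 of the phosphofructokinase members in WT cultures, 25.4% ± 0.666 in KO cultures, 24.2% ± 2.02 in WT tumours and 19.1% ± 1.85 in KO tumours. Pfkfb4 made up 40.3% ± 0.572 of the Pfkfb3 and Pfkfb4 sum in WT cultures and 19.2% ± 0.971 in KO cultures, while in tumours the shares were 41.2% ± 11.7 and 28.3% ± 9.0. P4ha2 made up 36.3% ± 1.91 of the P4ha1 and P4ha2 sum in WT cultures, 25.1% ± 1.21 in KO cultures, 32.7% ± 2.21 in WT tumours and 18.1% ± 2.30 in KO tumours. The Pfkfb4 shares were apart in culture and overlapped in tumours. Hk2 made up 70.1% ± 0.713 of the hexokinase members in WT cultures and 64.7% ± 1.05 in KO cultures, and 67.6% ± 1.80 and 43.7% ± 13.4 in WT and KO tumours.

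By level per kilobase of exon, the most abundant members were glycolytic enzymes in every group. Ldha ranked first in WT cultures, at 849 CPM per kilobase, ahead of Pgk1 (822) and Gapdh (688). In KO cultures Ldha stood at 494 and ranked 4 of 37, and Gapdh ranked first there (862) and in both tumour groups. Slc16a3 ranked 9 of 37 in WT cultures (143 CPM per kilobase) and 19 in KO cultures (24.9). Car9 ranked 34 in each group except KO tumours, where its group mean ranked 13. Most of that mean came from KO tumour 1. The order between neighbours was not tested. Near-identical copies could take reads from some enzymes. Gapdh has 202 annotated copies at 90% identity or more, which held 1.37% to 2.10% of the counts of Gapdh and its copies, and Pgam1 has 3, with up to 2.53%. Pkm shares 767 exon bases on the same strand with Gm49759, which had 11489 counts against 372848 for Pkm.

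Other genes of the same pathways, from lists that hold none of the 37 members, moved in both directions. The background for these counts was 9.27% of all genes called higher and 16.2% lower in culture. In tumours it was 8.78% higher and 10.9% lower. Of 23 other glycolysis and pyruvate genes, 18 were tested in culture, with 4 higher and 4 lower in KO and a median of 0.06. Among them Pdk4, a pyruvate dehydrogenase kinase, had 5.37 and 5.75 CPM in WT and 0.779 and 1.32 CPM in KO (log2 fold change -2.47 ± 0.36 SE, edgeR adjusted p = 0.00027). In tumours 5 of 21 were higher in KO, none was lower, and the median was 0.43. Pdk4 was among those higher, at 4.13, 3.82 and 2.64 CPM in WT tumours and 10.3 and 12.3 CPM in KO tumours (log2 fold change 1.66 ± 0.28 SE, edgeR adjusted p = 0.011). Mpc1, part of the mitochondrial pyruvate carrier (log2 fold change 1.08 ± 0.16 SE, edgeR adjusted p = 0.0085), and Pdha1 (0.84 ± 0.15, edgeR adjusted p = 0.012) and Dlat (0.69 ± 0.13, 0.015), subunits of pyruvate dehydrogenase, were also higher. The effect on Pdk4 differed between the settings (4.10 ± 0.48, edgeR adjusted p = 0.0015).

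Of 20 other hypoxia targets, 19 were tested in culture, with 3 higher and 6 lower in KO and a median of -0.06. All 20 were tested in tumours, with 2 higher and 4 lower and a median of -0.29. Over all genes tested the shares were 9.27% higher and 16.2% lower in culture, and 8.78% and 10.9% in tumours. Gbe1, the glycogen branching enzyme, was lower in both settings (-1.56 ± 0.21 and -1.67 ± 0.34, edgeR adjusted p = 0.00019 and 0.018). Plin2, a lipid droplet protein, was higher in both (0.96 ± 0.18 and 1.39 ± 0.19, edgeR adjusted p = 0.0021 and 0.0057). Pgf, placental growth factor, was at 21.9 and 24.9 CPM in WT cultures and 4.17 and 3.82 CPM in KO cultures (log2 fold change -2.58 ± 0.22 SE, edgeR adjusted p = 4.2e-06). Angptl4 was higher in KO tumours, at 57.7 and 63.7 CPM against 23.3, 21.2 and 22.6 CPM in WT tumours (log2 fold change 1.42 ± 0.12 SE, edgeR adjusted p = 0.0015), and Stc2 was lower (log2 fold change -2.15 ± 0.32 SE, edgeR adjusted p = 0.0081). The effects on Angptl4 and Stc2 differed between the settings (1.45 ± 0.20 and -2.82 ± 0.39, edgeR adjusted p = 0.0035 and 0.0033). Of 8 genes of oxygen sensing and HIF partners, 6 were tested in culture, where Rbx1, a subunit of the VHL ligase complex, fell (log2 fold change -0.86 ± 0.20 SE, edgeR adjusted p = 0.0080). In tumours none of the 7 tested was called by edgeR.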

How the data were processed

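Polyadenylated RNA was sequenced in 9 libraries with unique molecular identifiers used to remove duplicates, per the labels' protocols. The deposited values are raw gene counts, made by the authors with fastp 0.23.1, STAR 2.5.2b and featureCounts (Subread 1.5.2) on GRCm38, per the submitters' processing notes, which also name DESeq2. Which annotation was counted, whether strand was used and how multi-mapping reads were handled is not given in the sources used here. Normalised and regularised log tables of the authors were left aside.

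Ensembl identifiers were matched to GENCODE M21, which gave a symbol to 49412 of 49671 genes. Counts were fitted in edgeR 4.0.16 (R 4.3.3) after filterByExpr with a minimum count of 10 and a minimum total of 15, with TMM factors and quasi-likelihood F tests, and p-values were adjusted over all genes tested. The effect of KO was fitted in each setting alone, and the other comparisons in a fit of all 9 libraries. Each SE was taken from the fold change and its F statistic, as log2 fold change over root F. The procedure was also run on simulated data with 200 changed genes. How many of them it found is not given here, so that run lends the calls no weight. Alternatives were other scalings, filters and tools (DESeq2 1.42.0, limma 3.58.1), other sets of libraries, leaving out each library, a replicate block in culture, and, added after seeing the data, WT tumours 1 and 2 summed. Copies were sought with BLAST 2.17.0 at 90% identity over 300 bases.

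The members and lists were chosen with earlier results of these data known. Members were named in each comparison that called them. Uncalled members were given by value, range or count. In each other pathway list, up to 4 genes with the smallest p per comparison could be named. Total counts of 16032912 to 21247023 per library limit the precision of low genes such as Eno2, Epas1, Car9 and Car12, and intervals of ratios cover counting error only. The values of 1 gene of these lists are not reported here.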

Additional observations from a re-analysis of the deposited data

Results flagged for a closer look

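The effect of the knockout on 3 members differed between tumours and culture in the test of that difference. Of the 37 members 5.41% were called higher and 2.70% lower, near the 4.15% and 1.54% of all genes tested. The log2 difference (tumours minus culture) was 1.08 for Ldha, 4.40 for Car9 and -2.34 for Car12. Each call was lost when single libraries were left out, and Car9 rests on 2 KO tumours at 194 and 26.7 CPM.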

How the results depend on the processing

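The number of members called in culture, 16, was 8 in 1 fit of all 9 libraries and 10 (without WT culture 2) to 16 when each library was left out. With a replicate block it was 27, of which 25 were lower. Same-numbered cultures share only a number, and their deviations correlated at r = 0.23 over 16793 genes. No paired analysis was possible in tumours because the second KO column carries no label number. The count in tumours, 10, was 3 with WT tumours 1 and 2 summed, and 3 (without WT tumour 1 or 2) to 10 with each library left out. The count for the difference between settings, 3, was 6 with DESeq2, 1 with limma-voom, 9 without a filter, and 0 to 6 with each library left out. For tumours against culture, leaving out each library gave 14 to 24 members in WT (22 in all) and 10 to 22 in KO (16 in all). Under library totals, Gapdh, Eno1 and Pkm turned to 0.042, 0.0015 and 0.031 in WT tumours against WT culture, where the median of all genes moved from 0.17 to 0.64, so the 3 genes were below it under both scalings. The cause of the other changes was not tested. Over all genes, the calls in culture went from 3461 to 7587 with the block, those in tumours from 3206 to 1288 with WT tumours 1 and 2 summed, and those for the difference from 955 to 1625 with DESeq2 and 1875 without a filter. Every alternative run for a comparison kept 6 of 16 calls in culture, 3 of 10 in tumours, 0 of 3 for the difference, 12 of 22 in WT and 8 of 16 in KO. The difference between the medians of the hypoxia targets and the glycolytic enzymes ran from -0.30 to -0.10 in culture and from -0.78 to -0.42 in tumours.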
